A study of Mus musculus with 7 samples.

Results

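MOL2b is one of 11 clusters into which the study divided sorted oligodendrocyte lineage cells (OLCs) of the adult mouse forebrain, and its members are the cells that carry this name in the study's own annotation. It held 347 of 9291 annotated cells. The question addressed by the 3 libraries is whether oligodendrocytes of ventral origin that occupy the cortex after loss of the dorsal ones resemble the cells they replace. Control dOLCs were TdTom+ cells of Emx1-Cre:Sox10-GFP-TdTom mice, in which Cre under Emx1 regulation switches the Sox10 reporter from GFP to TdTom in dorsally derived cells. Control vOLCs were the GFP+ cells of mice of that same genotype. Ectopic vOLCs were GFP+ cells of mice that carry these alleles together with Sox10-GFP-DTA, an allele that also carries GFP. In it Cre removes GFP and a STOP sequence, which places diphtheria toxin fragment A under Sox10 control. These mice so lose most, but not all, dorsal OLCs. All mice were P90 animals of both sexes on a C57BL/6-B6CBA background, untreated, and the sorted tissue is labelled motor and cingulate cortex. Each condition was 1 library in which the mice cannot be told apart, so no test between conditions was possible and all intervals given here (95%) cover counting error only. The annotated cells held 4846391 to 23078181 UMIs (unique molecular identifiers, the counted RNA molecules) per library, and MOL2b held 1669227 of those from control dOLCs, 864209 from ectopic vOLCs and 52238 from control vOLCs.

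Mature oligodendrocytes (MOL) wrap axons in myelin and are commonly divided into transcriptional subtypes. The MOL2 subtype is known for Klk6, which encodes a secreted serine protease of the kallikrein family, and Hopx, which encodes a small homeodomain protein without DNA-binding activity of its own. It is described mainly in white matter, whereas MOL5/6 cells, known for the prostaglandin D2 synthase Ptgds and the alarmin Il33, prevail in grey matter. The annotation divides MOL2 into MOL2a and MOL2b.

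MOL2b was well represented among control dOLCs and ectopic vOLCs and was nearly missing among control vOLCs. It held 235 of 5804 control dOLCs (4.05%, interval 3.56 to 4.59) and 106 of 2562 ectopic vOLCs (4.14%, 3.40 to 4.98), but 6 of 925 control vOLCs (0.649%, 0.238 to 1.41). The control vOLC share lay below both others with no overlap of the intervals, and the shares of the other 2 libraries overlapped almost fully. Of the cells annotated as MOL2, MOL2b made up 32.1% among control dOLCs (28.7 to 35.6, 733 MOL2 cells), 48.0% among ectopic vOLCs (41.2 to 54.8, 221 cells) and 3.24% among control vOLCs (1.20 to 6.93, 185 cells). Among MOL2 cells all 3 intervals were apart, with ectopic vOLCs the highest. When barcodes that the study left out for 3000 or more genes were counted with the cluster of their nearest kept cells, MOL2b made up 4.82% of control dOLCs, 6.22% of ectopic vOLCs and 2.83% of control vOLCs (1.89 to 4.06), where 22 such barcodes joined the 6 cells. As the cells were sorted and the libraries are single, a difference between conditions cannot be told apart from one between sorts.

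**Figure D1:**
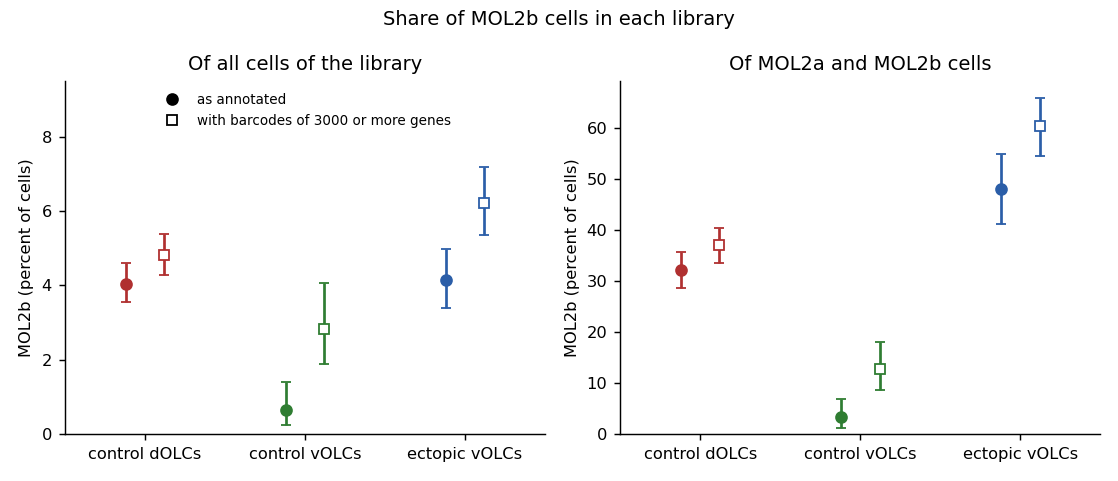
Share of MOL2b cells (percent) in each library, of all annotated cells on the left and of MOL2a and MOL2b cells on the right. Filled points are the annotated cells and open squares add the barcodes with 3000 or more genes that lie nearest to MOL2b; bars are 95% Clopper-Pearson intervals, and control vOLCs are lowest in both panels with either count.

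The division of MOL2 followed depth closely. Among MOL2 cells with 3000 to 5000 UMIs, MOL2b made up 16 of 343 control dOLCs (4.67%), 1 of 30 ectopic vOLCs and 0 of 32 control vOLCs (interval up to 10.9%). Among those with 5000 to 8000 UMIs it made up 157 of 242 (64.9%, 58.5 to 70.9), 48 of 124 (38.7%, 30.1 to 47.9) and 1 of 100 (1.0%, 0.0253 to 5.45). Among those with 8000 or more it made up 62 of 69 (89.9%), 57 of 66 (86.4%) and 5 of 48 (10.4%, 3.47 to 22.7). Control vOLCs were thus lowest in both upper depth ranges, while the order of control dOLCs and ectopic vOLCs in the middle range was the opposite of that over all MOL2 cells.

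MOL2b cells were the deepest of the 11 clusters. For control dOLCs, control vOLCs and ectopic vOLCs their medians were 7168, 8776.5 and 8292 UMIs, against 3862, 6762 and 6050 in MOL2a. They held a median of 2531, 2793.5 and 2620 genes in the same order of libraries, and 21.6% of MOL2b cells had 2800 or more genes, close under the study's limit of 3000, against 2.4% of MOL2a and 5.55% of MOL5/6d, the next deepest cluster. With each cell thinned to 1000 UMIs, the median was 619 genes in MOL2b, 575 in MOL2a and 597 in MOL5/6d.

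The makeup of the RNA also set MOL2b apart from MOL2a. With the libraries in that order, the median share of mitochondrial UMIs was 3.66%, 4.18% and 4.02%, against 7.36%, 6.6% and 7.48% in MOL2a. The median share of ribosomal protein UMIs was 6.39%, 7.51% and 6.33%, against 3.27%, 3.21% and 2.77%. On both measures MOL2b lay near MOL5/6d, with 4.06%, 4.21% and 4.52% mitochondrial and 7.07%, 7.21% and 7.11% ribosomal UMIs. In cells of 5000 to 8000 UMIs the contrast remained, with 3.69% mitochondrial UMIs in MOL2b and 5.82% in MOL2a of control dOLCs, and 4.05% and 7.29% in ectopic vOLCs. MOL2b stayed deeper within this range, at medians of 6855 against 5615 UMIs in control dOLCs and 7159 against 6233 in ectopic vOLCs. Cells called of like depth are thus matched in part only.

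**Figure D2:**
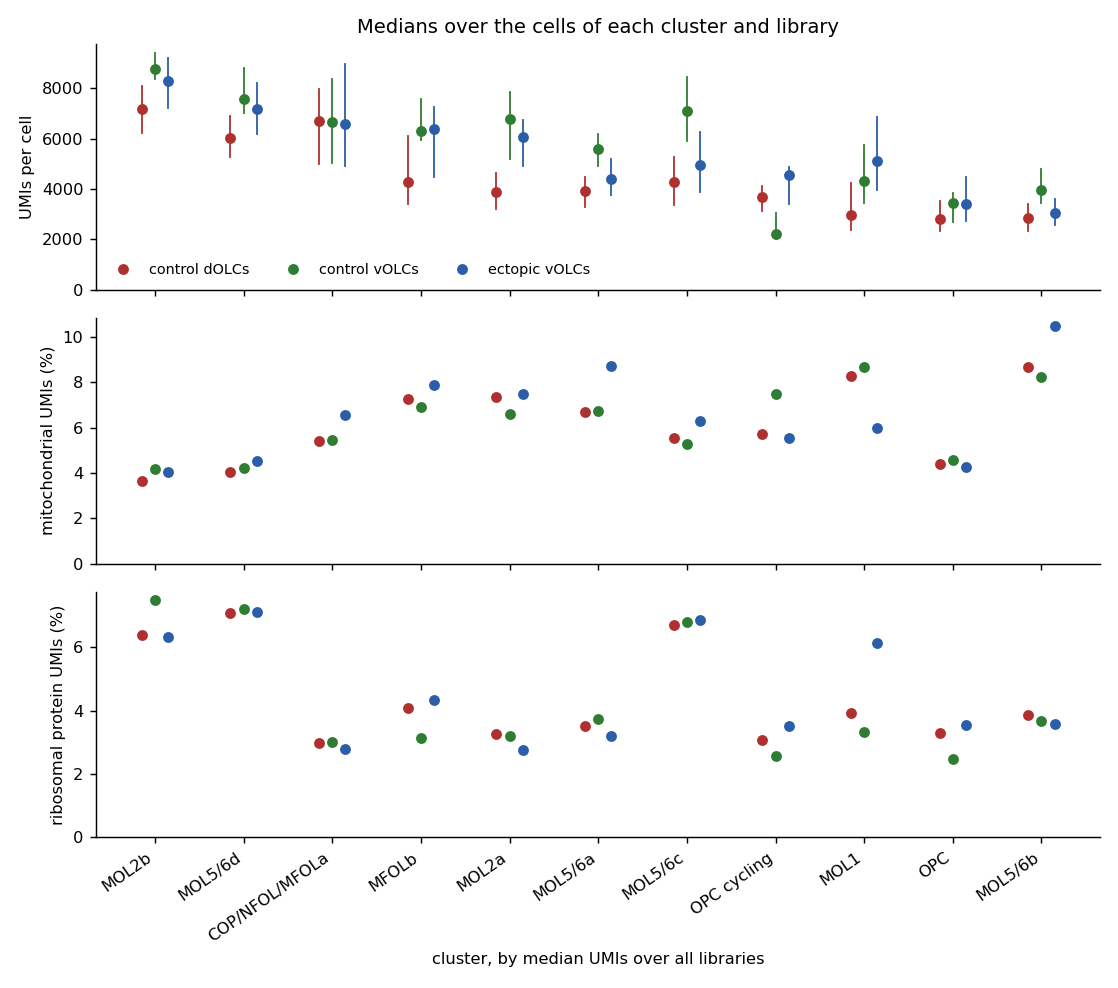
UMIs per cell (top), percent of mitochondrial UMIs (middle) and percent of ribosomal protein UMIs (bottom) in each of the 11 clusters, ordered by median UMIs; points are medians over the cells of a library and lines in the top panel run from the lower to the upper quartile. MOL2b is the deepest cluster at 7491 UMIs over all libraries, and pairs with MOL5/6d and MOL5/6c, not with MOL2a, in its ribosomal share.

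By the whole profile, MOL2b cells lay beside MOL5/6d cells and away from MOL2a. Of the 30 nearest neighbours of a MOL2b cell, 70.3% on average were other MOL2b cells, 21.3% were MOL5/6d, 5.75% MOL5/6c, 2.25% MOL1 and 0.154% MOL2a, although MOL2a made up 8.52% of all cells. MOL5/6d made up 15.5% of cells, and MOL5/6c 11.2%, above its share of neighbours. MOL5/6a, at 15.8% of cells, gave no neighbour, and MOL5/6b, at 23.9% of cells, gave 0.0865%. With every cell thinned to 1000 UMIs the shares were 52.8% MOL2b, 30.6% MOL5/6d, 11.1% MOL5/6c and 1.13% MOL2a. The 6 control vOLC cells had 47.2% MOL2b and 42.8% MOL5/6d neighbours. These are descriptions, since the clusters were made from the same genes.

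Klk6 was higher in MOL2b than in MOL5/6d and lower than in MOL2a in each library. In MOL2b its summed level was 280 CPM (counts per 1000000 UMIs, interval 256 to 307, 468 UMIs) among control dOLCs, 178 CPM (151 to 209, 154 UMIs) among ectopic vOLCs and 134 CPM (53.9 to 276, 7 UMIs) among control vOLCs. In MOL2a it was 546, 1412 and 1451 CPM, and in all other clusters it was at most 176.5 CPM, in MOL1 of control vOLCs. Control dOLCs were thus the highest library in MOL2b and the lowest in MOL2a. In cells of 5000 to 8000 UMIs the gap to MOL2a was wider, with 194 CPM against 1048 CPM in control dOLCs and 124 CPM against 1378 CPM in ectopic vOLCs.

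Hopx was low in both MOL2 clusters, and their order depended on the library. In MOL2b it reached 49.7 CPM (39.6 to 61.6, 83 UMIs) in control dOLCs and 41.7 CPM (29.2 to 57.7, 36 UMIs) in ectopic vOLCs. No Hopx UMI was found in the control vOLCs (0 of 6 cells, interval up to 45.9%). In MOL2a it stood at 24.8 CPM in control dOLCs, 55.2 CPM in ectopic vOLCs and 44.3 CPM in control vOLCs, so that MOL2b was higher in control dOLCs and lower in ectopic vOLCs. In cells of 5000 to 8000 UMIs of control dOLCs it was 43.6 CPM in MOL2b and 38.4 CPM in MOL2a.

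**Figure D3:**
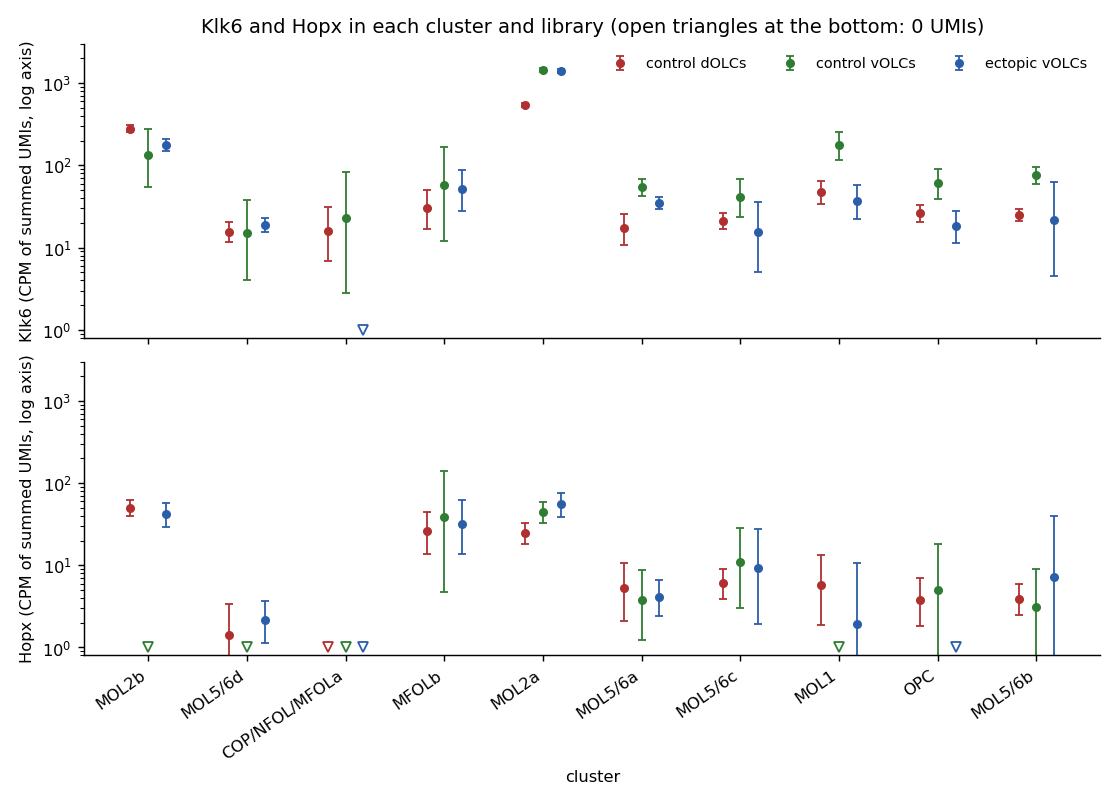
Level of Klk6 (top) and Hopx (bottom) in CPM of summed UMIs on a log axis, by cluster and library, with 95% Clopper-Pearson intervals. Open triangles mark 0 UMIs, and cycling OPCs are not drawn. Klk6 in MOL2b lies at 134 to 280 CPM, under MOL2a in every library and above MOL5/6d, at no more than 18.9 CPM.

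Counted by cell, a large part of MOL2b held neither marker, as did a like part of MOL2a in control dOLCs. Klk6 UMIs were seen in 95 of 235 MOL2b cells of control dOLCs (40.4%), in 59 of 106 among ectopic vOLCs (55.7%) and in 3 of 6 among control vOLCs, and Hopx UMIs in 58 (24.7%), 27 (25.5%) and 0 cells. Neither gene was seen in 118 (50.2%), 38 (35.8%) and 3 cells, respectively. In MOL2a neither was seen in 260 of 498 control dOLCs (52.2%), 17 of 115 ectopic vOLCs (14.8%) and 47 of 179 control vOLCs (26.3%). Thinned to 1000 UMIs per cell, with no cell of MOL2b or MOL2a left out, the share with Klk6 in the same order was 16.6% (12.1 to 22.0), 15.1% (8.88 to 23.4) and 16.7% (0.421 to 64.1) in MOL2b and 23.5%, 51.3% and 48.6% in MOL2a. Oligodendrocyte precursors (OPCs), which should lack Klk6, gave 2.11%, 1.82% and 4.96% at that depth, from medians of 2795, 3421.5 and 3454 UMIs. The MOL2b share was above this background in control dOLCs and ectopic vOLCs, and in control vOLCs it rests on 1 cell. Thinned to 500 UMIs, the share in ectopic vOLCs was 1.89% in MOL2b and 1.52% in OPCs, which is not above background. Unthinned it was 55.7% of these MOL2b cells and 6.36% of OPCs, which differ in depth. For Hopx the share at 1000 UMIs was 3.83% in control dOLCs and 3.77% in ectopic vOLCs, with 0.235% and 0% in OPCs. At 500 UMIs Hopx in ectopic MOL2b cells was 5.66%, above its share at 1000 UMIs. Each thinning was 1 random draw, so small shares carry the error of that draw.

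Cells of MOL2b with 3 or more Klk6 UMIs stood apart in several markers from those with fewer. Of the 347 cells, 190 (54.8%) had no Klk6 UMI, 90 had 1 or 2 and 67 (19.3%) had 3 or more. Over these 3 classes, Hopx stood at 28.7, 35.6 and 105 CPM, and S100b, which encodes a calcium-binding protein, at 300, 419 and 1290 CPM. Others of the MOL2 list were level over the first 2 classes, with Anxa5 at 87.6, 84.1 and 146 CPM, Mgst3 at 53.0, 51.3 and 87.5 CPM and Hapln2 at 881, 885 and 1160 CPM. Of the MOL5/6 markers, Ptgds went the other way, at 9840, 7620 and 4530 CPM, as did Il33 at 573, 441 and 204 CPM. Of the 10 markers of that list, 6 were lower in the highest class than in the lowest, among them Car2 at 7210, 6940 and 5990 CPM, and 4 were higher, among them Apod at 5430, 5400 and 6690 CPM and Trf at 9510, 9680 and 10500 CPM. The steps differed by library, with Cd59a at 120, 113 and 92.5 CPM in ectopic vOLCs but 72.4, 104 and 158 CPM in control dOLCs, where Il33 was at 488, 521 and 118 CPM. The directions of Hopx, S100b, Ptgds and Il33 held between the lowest and the highest class within control dOLCs and within ectopic vOLCs. There S100b was 331 and 1560 CPM in control dOLCs and 213 and 734 CPM in ectopic vOLCs, and Ptgds was 10100 and 4480 CPM and 8880 and 4140 CPM. The classes are cuts of a count, their median depths were 7181, 7816.5 and 8213 UMIs, and the part of depth in these differences was not tested.

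Ptgds, the most abundant MOL5/6 marker, was low in most MOL2b cells. Its median per cell was 5630 CPM in MOL2b (quartiles 3440 and 11500), 6560 CPM in MOL2a, 28300 CPM in MOL1 and 32000 CPM in MOL5/6d. In this measure MOL2b was like MOL2a, and its upper quartile lay below the lower quartile of MOL5/6d, 21500 CPM.

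The 6 control vOLC cells were of similar depth and held few UMIs of Klk6 and none of Hopx. They held 7314 to 9584 UMIs and 2520 to 2908 genes, with 3.64% to 4.48% mitochondrial UMIs. Klk6 UMIs numbered 5 in 1 cell, 1 in each of 2 cells and 0 in the other 3, and Ptgds UMIs ranged from 45 to 202. S100b was seen in all 6 cells, with 1 to 8 UMIs and 440 CPM in sum, and Hapln2 summed to 1010 CPM. Of the 6, 2 were among the barcodes with the highest doublet scores, described with the other cell types. They are too few for a comparison of genes.

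The genes with the highest ratio of MOL2b over all other cells together, with the 3 libraries pooled, included 2 markers of the MOL2 list. Hopx led, at 46.0 CPM against 7.24 CPM (log2 ratio 2.67), and Cd59a, a complement regulator of the MOL2 list, ranked among the first 10 at 101 CPM against 31.7 CPM. Serpind1, a serine protease inhibitor, stood at 70.0 CPM against 19.1 CPM. Tppp3, of the tubulin polymerisation promoting family, stood at 962 CPM against 292 CPM. Plin3, a lipid droplet coat protein, was at 265 CPM against 81.2 CPM, and Sepp1, the selenium carrier selenoprotein P, at 1337 CPM against 421 CPM. The others of the 10 were 2700046A07Rik, Aven (an apoptosis inhibitor), Ly6g6f and Gm43207, at log2 ratios from 1.64 to 2.33. Enpp6, a choline phosphodiesterase known from newly myelinating cells, ranked next at 248 CPM against 79.7 CPM. Enpp6 and Cd59a did not set MOL2b above MOL2a throughout. Among control dOLCs, control vOLCs and ectopic vOLCs, Enpp6 was 264, 134 and 226 CPM in MOL2b and 328, 364 and 347 CPM in MOL2a. Cd59a was 97.1, 38.3 and 112 CPM in MOL2b and 82.8, 120 and 122 CPM in MOL2a.

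Markers of other cell types were rare in MOL2b. Of 9 microglial markers, 5 (Cx3cr1, P2ry12, Csf1r, C1qc and Tmem119) had no UMI in any library and the sum over the list was 19.7 to 57.4 CPM. The neuronal markers Syt1 and Rbfox3 had none, with the list of 8 at 16.2 to 38.3 CPM, and 5 of 8 vascular markers had none, with at most 1.8 CPM in all. The 8 astrocyte markers summed to 220 to 230 CPM over the libraries, while OPCs held 1440 to 1660 CPM. The 11 OPC and committed precursor genes summed to 57.4 to 183 CPM in MOL2b. Among the 6% of barcodes with the highest doublet scores in each library were 9 MOL2b cells (2.59%), against 5.43% of MOL2a cells. These were 1 of 235 in control dOLCs, 6 of 106 in ectopic vOLCs and 2 of the 6 in control vOLCs. Of 47 barcode sequences found in more than 1 library, 2 belonged to MOL2b cells.

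Set against MOL2a, MOL2b was richer in transcripts of ribosomal proteins and of nuclear-coded respiratory chain subunits and poorer in those of the mitochondrial genome. In control dOLCs, 6107 genes passed a filter of 50 UMIs and detection in 10% of cells of either cluster. Of these 217 (3.55%) were at least 2-fold higher in MOL2b and 39 (0.639%) at least 2-fold lower. In ectopic vOLCs, 3778 genes passed, of which 448 (11.9%) were at least 2-fold higher and 82 (2.17%) lower. Of the 217 genes, 206 were also higher in ectopic vOLCs and 167 at least 2-fold. Between control dOLC cells of 5000 to 8000 UMIs (like depth, with medians of 6855 UMIs in MOL2b and 5615 in MOL2a) 175 were at least 2-fold higher. Of the 39 lower genes, 33 were also lower in ectopic vOLCs, but 6 at least 2-fold, and 19 at least 2-fold at like depth. These counts are sizes and not tests, because the clusters were drawn from these genes.

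Of the 12 leading higher genes, 6 were ribosomal. Rps12-ps3, Rpl35, Rps24, Rps20, Rps12 and Rps9 are ribosomal protein genes or a pseudogene of one, with log2 ratios of 1.86, 1.59, 1.46, 1.46, 1.44 and 1.37 in control dOLCs and 1.94, 1.93, 1.73, 1.65, 2.04 and 1.49 in ectopic vOLCs. Near-identical copies of such genes share reads, so the split between a gene and its pseudogene is uncertain. Tmsb4x, which encodes the actin-sequestering thymosin beta, reached 5750 CPM against 2000 CPM in control dOLCs (1.53, 1.47 to 1.58) and 6380 CPM against 1690 CPM in ectopic vOLCs. Tppp3 reached 941 CPM against 330 CPM (1.51) and 1030 CPM against 350 CPM.

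Taf10, a subunit of the general transcription factor TFIID, had the largest ratio of the 12, at 62.9 CPM against 14.9 CPM (2.08, 1.48 to 2.72), and 61.3 CPM against 11.6 CPM in ectopic vOLCs. Cox17, a copper chaperone for cytochrome oxidase, had a log2 ratio of 1.61, Tpt1, the translationally controlled tumour protein, 1.37, and Hmgn2, a nucleosome-binding protein, 1.54. All 12 were at least 2-fold higher at like depth and in ectopic vOLCs too, where the lowest of them was Hmgn2 at 1.37. In MOL5/6d over MOL5/6b, a deep and a shallow cluster of another subtype in control dOLCs, their ratios lay between 1.0 and 1.52.

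The 12 leading lower genes held 3 mitochondrial transcripts and several long genes with few counts. The complex I subunits mt-Nd1 and mt-Nd3 stood at 3580 CPM against 7210 CPM (-1.01) and 507 CPM against 1060 CPM (-1.06), and the ATP synthase subunit mt-Atp8 at 108 CPM against 242 CPM (-1.16). Of the nuclear genes, the histone methyltransferase Dot1l had a log2 ratio of -1.49, the helicase Ascc3 -1.53, Tmem132b -1.21, the non-muscle myosin Myh14 -1.01 and the Wnt co-receptor Lrp6 -1.14. Tapt1 had -1.25, the glutamate transporter Slc1a2 -1.05, the glycosyltransferase Glt8d1 -1.20 and the glypican Gpc1 -1.02. These 9 nuclear genes had 16 to 84 UMIs in MOL2b, and in ectopic vOLCs their log2 ratios ran from -0.22 (Tapt1) to -0.94 (Tmem132b), none of them at least 2-fold. Between control dOLC cells of 5000 to 8000 UMIs all 12 were lower, but 7 by less than 2-fold, namely mt-Nd1 (-0.71), mt-Nd3 (-0.80), mt-Atp8 (-0.85), Dot1l (-0.38), Myh14 (-0.49), Lrp6 (-0.66) and Gpc1 (-0.44).

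Of 86 cytoplasmic ribosomal protein genes, 83 passed the filter in control dOLCs. All 83 were higher in MOL2b than in MOL2a, 52 of them at least 2-fold, with a median log2 ratio of 1.05 where the median over all genes was 0.04. In ectopic vOLCs 67 were at least 2-fold higher, with a median of 1.30 against 0.16 over all genes. Of 80 nuclear oxidative phosphorylation genes 73 passed, 66 higher and 16 at least 2-fold, with a median of 0.64 (0.72 in ectopic vOLCs). All 13 mitochondrial transcripts were lower, 4 at least 2-fold, with a median of -0.97, and the 12 that passed in ectopic vOLCs had a median of -0.91. At like depth in control dOLCs the medians were 1.17, 0.58 and -0.72, and no mitochondrial transcript was at least 2-fold lower. These 3 shifts were seen between MOL5/6d and MOL5/6b as well, with medians of 0.93, 0.65 and -1.05. Between MOL2b and MOL5/6d the medians were smaller in size, at -0.12, 0.02 and -0.18. There 82 of 83 ribosomal genes and all 12 mitochondrial transcripts past the filter were lower in MOL2b, none of them at least 2-fold. Both lists of nuclear genes were added after the ratios of single genes had been seen.

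Ratios over MOL2a also varied with transcript length. Across the 5947 genes with a length, Spearman's rho of the ratio in control dOLCs with length was -0.44 (across genes, which are not independent), with a median log2 ratio of 0.37 below the lower quartile of length and -0.19 above the upper. Against MOL5/6d rho was 0.04, and for MOL5/6d over MOL5/6b it was -0.60. With the trend on length taken off, 80 genes were at least 2-fold higher and 58 lower, which puts 58.0% of them on the higher side instead of 84.8%, and the median was 0.50 for ribosomal proteins and 0.13 for oxidative phosphorylation. The parts of depth, RNA quality and length in these ratios were not tested.

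**Figure D4:**
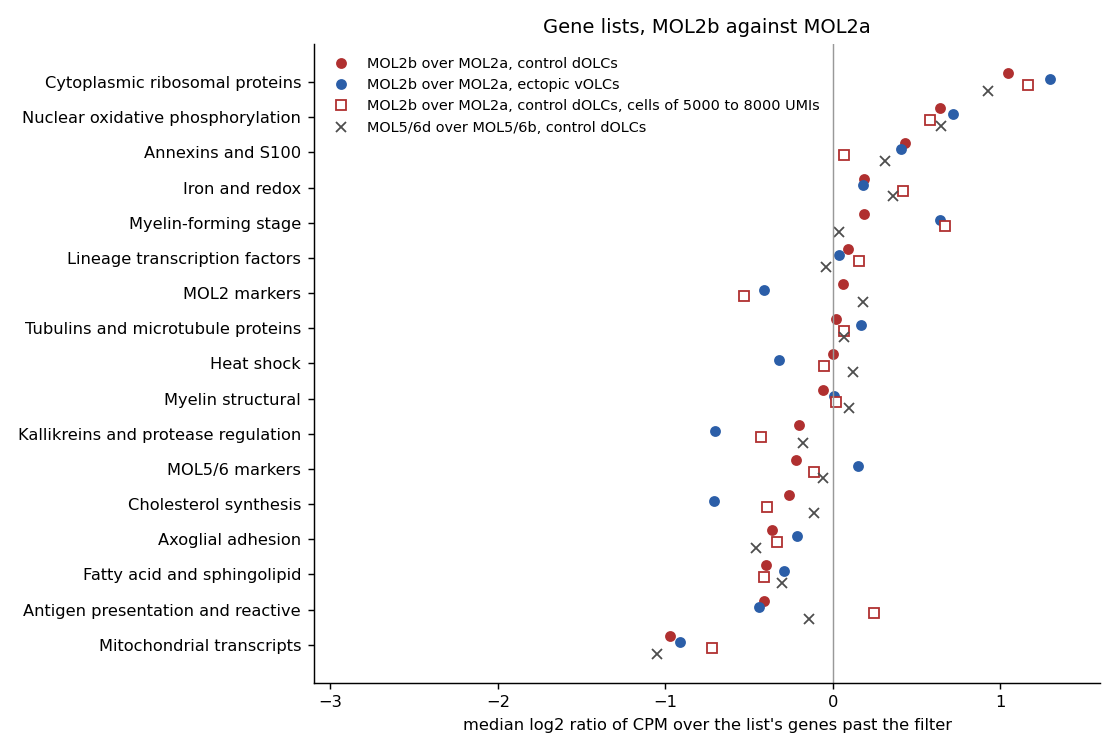
Median log2 ratio of CPM over the genes of each list past the filter, for MOL2b over MOL2a in control dOLCs (red), in ectopic vOLCs (blue) and in control dOLC cells of 5000 to 8000 UMIs (open squares), and for MOL5/6d over MOL5/6b (crosses). Ribosomal proteins lie between 0.93 and 1.30 and mitochondrial transcripts between -0.72, at like depth, and -1.05, and the MOL2 markers lie at 0.06 in control dOLCs and -0.41 in ectopic vOLCs.

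Genes of the myelin sheath were divided. Of 15 myelin structural genes all passed, 6 higher and 9 lower and none at least 2-fold in control dOLCs, with a median of -0.06. Mobp, of compact myelin, was 3190 CPM against 2000 CPM in control dOLCs (0.67) and 3550 CPM against 1730 CPM in ectopic vOLCs (1.04), and Plekhb1 had log2 ratios of 0.92 and 1.04. Mbp, myelin basic protein, was higher in both (0.38 and 0.65). Mag, an adhesion protein of the periaxonal membrane, was lower at 4150 CPM against 6600 CPM (-0.67) and 3630 CPM against 7370 CPM (-1.02).

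Lipid synthesis and axoglial adhesion genes tended to lower values without passing 2-fold in control dOLCs. Of 15 fatty acid and sphingolipid genes 14 were lower, with a median of -0.40 (-0.29 in ectopic vOLCs), among them the elongase Elovl5 at -0.74 and -1.45 and the galactosylceramide synthase Ugt8a at -0.45 and -0.61. Of 15 cholesterol synthesis genes 10 were lower, with a median of -0.26, and all 12 that passed in ectopic vOLCs were lower, with a median of -0.71. Of 11 axoglial adhesion genes past the filter 10 were lower, with a median of -0.36, and 7 of 11 both in ectopic vOLCs (-0.21) and at like depth (-0.33). Shifts of the adhesion list (-0.46) and the fatty acid list (-0.30) were present between MOL5/6d and MOL5/6b too.

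Iron, cytoskeleton and marker lists held single large ratios. Fth1, the ferritin heavy chain, was 30400 CPM against 14700 CPM in control dOLCs (1.05), 29500 CPM against 12000 CPM in ectopic vOLCs (1.30) and 33600 CPM against 18900 CPM in the 6 control vOLC cells, while the 13 iron and redox genes past the filter had a median of 0.19. The iron carrier Trf went the other way, at -0.61 and -0.97. Stmn1, a microtubule-destabilising protein, had 1.14 and 1.58, and of the 14 tubulin and microtubule genes past the filter it and Tppp3 were the 2 at least 2-fold higher, with a median of 0.02.

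Of 7 MOL2 markers past the filter, 4 were higher than in MOL2a in control dOLCs and 3 lower, with a median of 0.06, and Hopx alone was at least 2-fold higher (1.00). At 5000 to 8000 UMIs 6 of the 7 were lower, with a median of -0.53, and Hopx was at 0.18. In ectopic vOLCs all 7 were lower, led by Klk6 (-2.99), with a median of -0.41. S100b had 0.42 in control dOLCs, -0.53 there at like depth and -0.19 in ectopic vOLCs, and Hapln2, a link protein of nodes of Ranvier, had -0.34 and -0.44. Of 10 MOL5/6 markers, 4 were higher and 6 lower in control dOLCs, with a median of -0.22, and 7 higher and 3 lower in ectopic vOLCs, with a median of 0.15. Among them Apod, a lipid-binding lipocalin, was 5530 CPM against 9290 CPM (-0.75) and 6030 CPM against 15400 CPM (-1.35), the nuclear RNA Neat1 had -0.95 and -0.29, and Jph4, a junctophilin, had 0.28 and 1.56. Against MOL5/6d in control dOLCs, by contrast, all 7 MOL2 markers were higher in MOL2b and 5 at least 2-fold, with Hopx at 5.11, Klk6 at 4.17, S100b at 2.92 and Anxa5 at 1.21. Of the MOL5/6 markers 4 of 10 were higher than in MOL5/6d, with a median of -0.09, among them Apod at 0.90 and Anln at 1.53, and Ptgds was lower at -1.97.

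The remaining lists had smaller medians or few members past the filter, and several changed sign at like depth, where fewer members passed. In control dOLCs the 6 annexin and S100 genes past the filter were all higher with a median of 0.43, but 4 higher and 2 lower both at like depth (median 0.07) and in ectopic vOLCs (0.41). The 7 kallikrein and protease regulation genes had a median of -0.20, the 6 antigen presentation and reactive genes -0.41 (0.25 at like depth, 4 genes), the 12 lineage transcription factors 0.09, the 7 heat shock genes 0.00 and the 6 myelin-forming genes 0.19. The 4 OPC and committed precursor genes had -0.34 (0.03 at like depth, 3 genes) and the 4 immediate early genes 0.13 (-0.44, 2 genes). No patterning, neuronal or vascular gene passed. The 4 astrocyte genes that passed were all lower, 1 of them at least 2-fold, with a median of -0.74 (-0.53 at like depth), and the 1 microglial gene was at -0.91. Slc1a2, named among the leading lower genes, is a marker of the astrocyte list, and the part of RNA from other cells in these ratios was not tested.

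Within MOL2b, Tubb3 had the largest ratio among the genes higher in ectopic vOLCs than in control dOLCs. Of 5311 genes past the filter, 17 (0.32%) were at least 2-fold higher in ectopic vOLCs and 93 (1.75%) at least 2-fold lower, with a median log2 ratio of -0.05. The filter sums the UMIs of both groups, and MOL2b held 1669227 UMIs in control dOLCs against 864209 in ectopic vOLCs. A gene held by 1 group alone thus reached 50 UMIs at a lower level in control dOLCs, so the 2 counts are not on equal terms. Across 5177 genes with a length, Spearman's rho of this ratio with length was -0.29, and with the trend on length taken off 22 genes were at least 2-fold higher and 57 lower. Tubb3, a beta-tubulin best known from neurons, stood at 164 UMIs (190 CPM) in ectopic vOLCs against 14 UMIs (8.39 CPM) in control dOLCs, a log2 ratio of 4.50 (3.71 to 5.40). In the 52238 UMIs of control vOLC MOL2b cells it had 0 UMIs. The ratio was 4.28 in MOL2a, 3.97 in MOL1 and 3.67 in MOL5/6.

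The next genes higher in ectopic MOL2b cells differed in how far other clusters shared them. Polr2f, a subunit shared by the nuclear RNA polymerases, had 568 CPM against 259 CPM (1.13, 0.94 to 1.32), with 0.78 in MOL2a and 1.18 in MOL5/6. Npsr1, the neuropeptide S receptor, had 79.8 CPM against 31.2 CPM (1.36), with 1.84 and 1.71 in those clusters, and Magi1, a junctional scaffold, had 116 CPM against 46.7 CPM (1.31), with 0.31 and 1.48. Vcl, vinculin, had 32 UMIs against 21 UMIs (1.56, 0.72 to 2.43), with -0.37 in MOL2a (-2.15 to 1.10) and 0.75 in MOL5/6.

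The other 4 named higher genes were close to 2-fold. Dnah14, a dynein heavy chain, had 1.02, Cyp2j12, a cytochrome P450, 1.07, the ligand Wnt3 1.08 and the glycosyltransferase B3gnt9 1.10. Their ratios in MOL2a were 0.36, 1.05, 0.31 and 0.67, and in MOL5/6 they were 0.84, 1.02, 0.23 and 0.53. The interval of each in MOL2b overlapped that in MOL2a, and the differences between clusters were not tested.

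The lower genes were led by transcripts nearly missing from ectopic vOLCs. Dlk2, a membrane protein related to Notch ligands, had 0 UMIs in ectopic MOL2b cells against 62 UMIs in control dOLCs, which with 0 read as 3 UMIs gives a log2 ratio of -3.42 or lower. Slpi, a secreted protease inhibitor, had 3 UMIs against 76 UMIs (-3.71, -6.02 to -2.11) and Eya2, a transcriptional coactivator with phosphatase activity, 2 UMIs against 50 UMIs (-3.69, -6.78 to -1.77). In MOL5/6 the ratios of Dlk2, Slpi and Eya2 were -3.39, -3.94 and -5.10. The control vOLC cells of MOL2b had 1, 0 and 2 UMIs of these genes.

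Gm10260 had 1 UMI against 189 UMIs (-6.61, -11.92 to -4.12) and 22 UMIs in the 6 control vOLC cells. It shares 68.7% of its 31-base words with Rps18, and the sum of both genes was 584 UMIs against 1232 UMIs, a log2 ratio of -0.13 (-0.27 to 0.02). The ratio of Gm10260 alone is thus uncertain, as reads can be divided between the copies.

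Lower values in other genes were of moderate size. Hddc3, a nucleotide phosphohydrolase, had 20.8 CPM against 110 CPM (-2.40), Rab6b, a Golgi GTPase, 16.2 CPM against 74.9 CPM (-2.21) and Erdr1 6.94 CPM against 41.9 CPM (-2.59). Their ratios in MOL5/6 were -1.77, -1.58 and -2.21. Crnkl1, a splicing factor, had 6 UMIs against 50 UMIs (-2.11, -3.62 to -0.89), where MOL2a had -0.36 (-1.37 to 0.54), MOL1 -0.26 and MOL5/6 -0.19 (-0.45 to 0.06). Pard3, a cell polarity protein, had -1.58 (-2.39 to -0.85), with -0.06 in MOL2a (-0.64 to 0.49), -1.19 in MOL1 and -0.79 in MOL5/6 (-0.97 to -0.61). The MOL2b interval overlapped that in MOL2a for Crnkl1, that in MOL5/6 for Pard3 and that in MOL1 for both. Both genes were named for their low ratios in MOL2b, and differences between clusters were not tested. Tppp, which promotes tubulin polymerisation in oligodendrocyte processes, had 126 UMIs against 510 UMIs (-1.07, -1.36 to -0.78), and its ratio was -1.63 in MOL2a, -1.29 in MOL1 and -1.44 in MOL5/6. The clusters share libraries, so their ratios are not separate replicates.

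**Figure D5:**
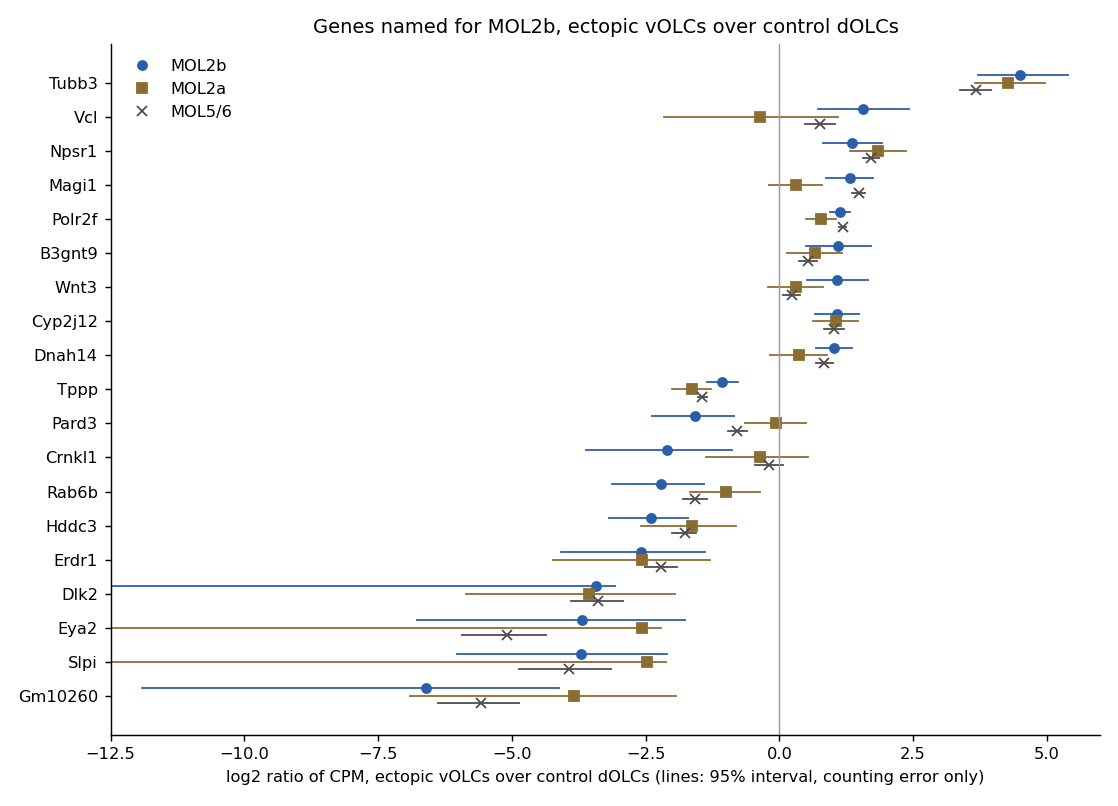
Log2 ratio of CPM in ectopic vOLCs over control dOLCs for 19 named genes, in MOL2b (circles), MOL2a (squares) and MOL5/6 (crosses), with 95% intervals for counting error as lines. Lines that reach the left edge have no lower bound because ectopic vOLCs had 0 UMIs. Tubb3 is the highest in all 3 at 3.67 to 4.50. The points of Crnkl1 and Pard3 are lower in MOL2b than in the other 2, with intervals that overlap MOL2a for Crnkl1 and MOL5/6 for Pard3.

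In the annotated cells Klk6 differed in direction between the 2 MOL2 clusters. Its log2 ratio of ectopic vOLCs over control dOLCs was -0.65 (-0.93 to -0.39) in MOL2b and 1.37 in MOL2a, Hopx was -0.26 (-0.86 to 0.33) and 1.16, and S100b was -0.87 (-1.06 to -0.69) and -0.27. Counted by cell, Klk6 was seen in 55.7% of ectopic and 40.4% of control dOLC cells of MOL2b, and in 15.1% and 16.6% at 1000 UMIs. A single cell held up to 16 and 40 Klk6 UMIs, and the interval takes the UMIs of 1 cell as independent. The MOL2a cells of control dOLCs were shallower, at a median of 3862 UMIs against 6050 in ectopic vOLCs, while those of MOL2b had 7168 and 8292 UMIs. In cells of 5000 to 8000 UMIs, Klk6 was 124 CPM against 194 CPM in MOL2b and 1378 CPM against 1048 CPM in MOL2a, so that its directions stayed while the gap in MOL2a was smaller, and Hopx was 47.4 CPM against 43.6 CPM in MOL2b, the opposite direction. In barcodes of 3000 or more genes that were assigned to MOL2b, Klk6 was 991 CPM in the 70 of ectopic vOLCs and 916 CPM in the 58 of control dOLCs, so that the lower level of ectopic MOL2b cells was not seen above the study's limit. The part of the assignment of cells to clusters in these ratios was not tested.

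Most gene groups differed little between the conditions in MOL2b. The median log2 ratio was 0.08 for the 15 myelin structural genes, 0.03 for 14 cholesterol synthesis genes, -0.21 for 15 fatty acid and sphingolipid genes, -0.23 for 11 axoglial adhesion genes and 0.03 for 83 ribosomal proteins, with no member at least 2-fold apart in any of these lists. All 7 heat shock genes past the filter were lower, 1 of them at least 2-fold, with a median of -0.30, and 11 of 12 mitochondrial transcripts were higher with a median of 0.18. The 3 OPC and committed precursor genes past the filter were all lower, with a median of -0.64, where MOL2a had -1.28, MOL5/6 -1.02 and MOL5/6d -0.82, and of the 4 immediate early genes 3 were lower, with a median of -0.36. A list of 10 genes and another of 35 came from the MOL5/6 cells of these libraries, chosen as higher and lower in ectopic vOLCs, so that they are not independent evidence of direction. Of the 10, all were above 0 in MOL2b and 4 at least 2-fold, with a median of 0.69 (0.57 in MOL2a, 0.80 in MOL5/6). Of the 35, 34 were below 0 and 2 at least 2-fold, with a median of -0.48, where MOL2a had 12 at least 2-fold and -0.87, MOL5/6 had 8 and -0.85, and MOL5/6d, the cluster nearest in depth, had 1 and -0.41.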

How the data were processed

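Cells of 3 P90 libraries had been sorted for GFP or TdTom and sequenced with 10x 3′ chemistry. The authors deposited raw UMI counts per gene and cell, made with Cell Ranger (2.1.1 in the submitters' processing notes, a later release in the methods) on mm10, together with an annotation of clusters found in Seurat (3 and 4.0 in those notes). The annotation also gives the mitochondrial share of each cell, which the authors deposited as a percent, and 7 of its other columns were not used. The methods' filter (more than 200 genes but fewer than 3000, mitochondrial counts up to 15%) was applied to 10081 barcodes and gave the 9291 annotated cells. The methods place the tissue in the neocortex and, for dissociation, the corpus callosum. They give 4 control and 2 ablated mice, and a former cohort was discarded by the authors for batch effects. The 4 samples of P0 nuclei were not analysed here.

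MOL2b cells were taken by their annotated cluster, and their library from the annotation. UMIs were summed per library and cluster and scaled to 1000000 (CPM). Ratios carry conditional exact binomial intervals, and levels and shares carry Clopper-Pearson intervals, all at 95%. A sum of 0 was read as 3 UMIs summed over the cells compared, as a bound. Genes needed 50 UMIs in both groups together and detection in 10% of the cells of 1 group. Calling a gene means a 2-fold ratio, and no gene was tested. Shares at equal depth used cells thinned to 1000 UMIs. Neighbours came from 50 principal components of square root transformed counts and 30 neighbours. Named genes were Klk6, Hopx, members of the lists, Tubb3, Eya2 and Tppp, the 12 highest and 12 lowest ratios of MOL2b over MOL2a that were 2-fold in control dOLCs with the same direction in ectopic vOLCs, and the 10 highest and 10 lowest of ectopic vOLCs over control dOLCs, ranked by the interval bound nearest 0. Not all genes under this rule are given, as some are not reported here. The members and all lists were chosen with earlier results of these data known, and the lists of ribosomal proteins and nuclear oxidative phosphorylation after single ratios were seen. Leading genes of the cluster and the genes of its Klk6 classes were named after their values were seen. No cell was removed as a doublet. Scrublet marked 16 kept cells, and whether its cut-off held in these data was not tested. The 6% of barcodes with the highest scores were left out as an alternative. Other alternatives were TMM and median of ratios factors, no filter on genes, means over cells, thinned cells, a 1.5-fold limit, at most 10% mitochondrial counts, a correction for transcript length, the other libraries and cells of like depth. Lengths and shared words came from the longest transcripts of the mouse annotation given with the data. The ratio and its interval were tested on simulated data. Scripts ran in Python 3.11.15 with scikit-learn 1.9.0 for neighbours, scanpy 1.11.5 for doublet scores, scipy 1.17.1 for intervals, pandas 2.3.3 and numpy 2.4.6, and in R 4.3.3 with edgeR 4.0.16 for normalisation factors alone.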

Additional observations from a re-analysis of the deposited data

Results flagged for a closer look

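Part of the barcodes outside the annotated cells lay nearest to MOL2b, and these carried high levels of Klk6, Hopx and S100b. The study's limit of 3000 genes left out 280 control dOLC, 66 control vOLC and 266 ectopic vOLC barcodes (4.6%, 6.66% and 9.41% of each library with them). By the cluster most frequent among their nearest kept cells, 58, 22 and 70 of these were assigned to MOL2b in the same order, against 67, 5 and 116 to MOL5/6d and 2, 12 and 1 to MOL2a. The same assignment gave 80.4% of the kept MOL2b cells back to MOL2b. With every cell thinned to 1000 UMIs first, 52, 18 and 61 barcodes were assigned to MOL2b and 62.5% of kept MOL2b cells were given back. In control vOLCs the barcodes left out outnumbered the 6 annotated cells.

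These barcodes held Klk6, Hopx and S100b, of the MOL2 list, at higher levels than annotated MOL2b cells. The other markers of that list were not examined in them. Klk6 stood at 916, 1440 and 991 CPM in that order, where kept MOL2b cells had 280, 134 and 178 CPM and kept MOL2a cells 546, 1451 and 1412 CPM. In this marker they were thus above MOL2a in control dOLCs, close to it in control vOLCs and below it in ectopic vOLCs. Hopx stood at 116, 149 and 117 CPM and S100b at 1860, 1730 and 1210 CPM. A Klk6 UMI was found in 47 of the 58 barcodes (81.0%), 20 of the 22 (90.9%) and 62 of the 70 (88.6%). Barcodes left out for the same reason but assigned to MOL5/6d had Klk6 at 13.4, 62.1 and 28.3 CPM. Ptgds was lower than in kept MOL2b cells, at 5200, 4940 and 4890 CPM against 8700, 15900 and 6640 CPM. Their median depth was 10918, 11144.5 and 11535 UMIs, and 3, 1 and 2 of them were among the 6% with the highest doublet scores. Whether they are single cells was not tested.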

How the results depend on the processing

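Of 109 values of the shares, counts and neighbour shares under alternatives, 66 stayed within the interval or 1.5 times the count and 43 moved. Of 664 values of Klk6, Hopx, the ranked genes and the medians of the main lists, 551 stayed, 106 moved and 7 of genes with a ratio of at least 2-fold changed sign. Sign changes of values under 2-fold are not in that count, among them the medians over MOL2a of the MOL2 markers (-0.41 in ectopic vOLCs, -0.53 at like depth) and the MOL5/6 markers (0.15 in ectopic vOLCs), and Hopx of ectopic vOLCs over control dOLCs at like depth. No paired analysis was possible because the conditions have 1 library each, with no replicate and no test. The windows of depth and the added barcodes were chosen after seeing the data.

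MOL2b made up 4.70% of control dOLCs with at most 10% mitochondrial counts and 4.76% of their oligodendrocytes. With the barcodes of 3000 or more genes added it made up 4.82%, 2.83% and 6.22% of control dOLCs, control vOLCs and ectopic vOLCs (4.72%, 2.42% and 5.91% when assigned at 1000 UMIs) and 37.0%, 12.8% and 60.3% of their MOL2 cells (36.5%, 11.2% and 58.6%). In cells of 5000 to 8000 UMIs it made up 64.9%, 1.0% and 38.7% of MOL2 cells, with control dOLCs above ectopic vOLCs instead of below. Control vOLCs were lowest under each of these.

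For MOL2b over MOL2a, no filter beyond 1 UMI gave 590 genes higher and 715 lower, which puts 45.2% on the higher side instead of 84.8%. Thinning gave 138 higher of 1697 genes past the filter (8.13%, against 3.55% of 6107), length taken off 80 higher, a 1.5-fold limit 918 higher and 431 lower, and ectopic vOLCs 448 higher and 82 lower. In control vOLCs the counts were 322 and 474, and with control vOLCs as the control of ectopic vOLCs 284 and 97. Their 6 MOL2b cells held 52238 UMIs, so genes passed the filter nearly always through the other group, and these counts are not comparable with the main ones. Hopx turned in ectopic vOLCs (-0.41), and Dot1l (0.10), Lrp6 (0.10), Tapt1 (0.49) and Glt8d1 (0.87) in control vOLCs. Outside that count, Lrp6 was also above 0 in ectopic vOLCs of 5000 to 8000 UMIs (0.84, 10 UMIs against 8 UMIs). For ectopic vOLCs over control dOLCs, no filter gave 306 higher and 932 lower, thinning 4 and 16 of 1102 genes (0.363% and 1.45%, against 0.32% and 1.75%), a 1.5-fold limit 134 and 445 and length taken off 22 and 57. Wnt3 turned in thinned cells (-2.17) and Vcl against control vOLCs (-0.05). The causes were not tested.

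MOL2b cells with Klk6 were 10.6% in control dOLCs and 1.89% in ectopic vOLCs at 500 UMIs (OPCs 1.29% and 1.52%), and 40.4% and 55.7% unthinned, and those with Hopx 24.7% and 25.5% unthinned. The thinned shares come from 1 random draw. Of neighbours, 52.8% were MOL2b and 30.6% MOL5/6d at 1000 UMIs, and 14.8% MOL5/6d within control dOLCs alone. With 1 UMI the unit of a single cell, a share of 0 at this depth does not show absence.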
